A study of Mus musculus with 21 samples.

Results

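Among the accessible chromatin regions of muscle fibre nuclei, 2371 had higher accessibility in trained mice directly after an exhaustive run than in sedentary mice and were not listed for untrained mice at the same time. They were chosen by their measured values: a region had to be in the list of trained mice at 0 h, with a trained mean above the sedentary mean, and its coordinates had to be absent from the list of untrained mice at 0 h. The 2371 regions were part of 4462 gains and 34078 regions listed for trained mice at 0 h, and of 41411 regions listed in any comparison. A list holds the regions under the authors' false discovery rate (FDR) of 0.05, and 63953 regions were tested in each comparison. Gains made up 6.98% of the regions tested in trained mice at 0 h, and regions listed in either direction made up 33.1% in untrained mice at 0 h. Both lists were used to choose the regions, so nothing is read from these shares.

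Chromatin was profiled by ATAC-seq, in which a transposase cuts and tags open DNA, in nuclei of quadriceps muscle, which were bound to magnetic beads through PCM1, a protein found around muscle fibre nuclei. The 21 samples came from adult male C57/Bl6 wildtype mice in 7 groups of 3: trained mice at 0, 6 and 72 h after the run, untrained mice at the same times, and sedentary mice that did not run. Trained mice had 12 weeks of voluntary wheel running, and both kinds of exercised mice made 1 exhaustive treadmill run. Trained mice were not sampled at rest, and in the trained groups the effect of training and of the run cannot be told apart. Each value is the authors' group mean, given as the mean normalised read count of a region on the log2 scale, and a difference is the exercised mean minus the sedentary mean. Values per sample were not in the tables used here, so no replicate spread, depth or new test can be given, and regions are not replicates of a condition. The untrained 0 h means of the 2371 regions were likewise not in these tables: absence from that list does not show that untrained muscle had no gain there.

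Open chromatin away from promoters often marks enhancers, DNA elements at which transcription factors bind and from which they act on genes that can lie far away. AP-1 is a family of dimers of FOS and JUN proteins, whose genes are immediate early genes in exercised muscle, and it binds the sequence TGANTCA. CREB, which is phosphorylated after cAMP or calcium signals, binds the cAMP response element (CRE), TGACGTCA. Both sequences were searched for in the central 200 bp of every region, on both strands. No stretch can match both over its whole length, because the CRE has 1 base more than the AP-1 sequence.

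A set of the regions with the largest differences and an AP-1 sequence are shown first, because, of the 16 sequences searched, this was the one found in most of the regions. Each line gives the central 200 bases on the plus strand of GRCm39, named by the nearest protein-coding gene, with the AP-1 matches in capitals.
Fam135a: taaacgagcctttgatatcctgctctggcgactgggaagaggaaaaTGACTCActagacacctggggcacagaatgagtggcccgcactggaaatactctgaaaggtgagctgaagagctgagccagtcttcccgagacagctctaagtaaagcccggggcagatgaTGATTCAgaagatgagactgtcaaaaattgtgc
Tenm4: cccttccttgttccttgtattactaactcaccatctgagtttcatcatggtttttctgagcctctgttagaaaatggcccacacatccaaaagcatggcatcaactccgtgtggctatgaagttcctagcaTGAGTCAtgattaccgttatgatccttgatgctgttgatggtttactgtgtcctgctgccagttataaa
Abhd2: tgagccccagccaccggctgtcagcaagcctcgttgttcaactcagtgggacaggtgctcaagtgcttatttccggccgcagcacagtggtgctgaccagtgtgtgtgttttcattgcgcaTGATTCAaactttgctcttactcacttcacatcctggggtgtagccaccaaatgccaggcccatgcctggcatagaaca
Arhgap24: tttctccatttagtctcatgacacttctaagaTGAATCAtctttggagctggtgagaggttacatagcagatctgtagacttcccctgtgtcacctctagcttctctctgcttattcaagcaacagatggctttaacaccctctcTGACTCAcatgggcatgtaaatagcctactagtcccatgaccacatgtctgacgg
Mtpn: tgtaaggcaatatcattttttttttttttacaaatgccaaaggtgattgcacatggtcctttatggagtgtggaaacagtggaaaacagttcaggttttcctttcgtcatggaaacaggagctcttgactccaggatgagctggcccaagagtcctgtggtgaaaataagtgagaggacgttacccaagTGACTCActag
Ptprq: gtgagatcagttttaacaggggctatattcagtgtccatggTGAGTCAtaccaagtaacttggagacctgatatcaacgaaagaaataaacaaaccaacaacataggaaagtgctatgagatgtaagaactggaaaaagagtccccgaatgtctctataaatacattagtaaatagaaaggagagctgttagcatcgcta

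The windows lie at chr1:24147189-24147388 (Fam135a), chr7:95501948-95502147 (Tenm4), chr7:78986378-78986577 (Abhd2), chr5:102668460-102668659 (Arhgap24), chr6:35432915-35433114 (Mtpn) and chr10:107532664-107532863 (Ptprq). The Fam135a and Arhgap24 windows held 2 matches each and the other windows 1 each. The first match began at base 47 of the Fam135a window and at base 190 of the Mtpn window. A match is a sequence and not a measured binding site.

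Not all regions with large differences held the AP-1 sequence in this window. The Inpp4a and Slc2a1 windows had no match and are shown for comparison.
Inpp4a: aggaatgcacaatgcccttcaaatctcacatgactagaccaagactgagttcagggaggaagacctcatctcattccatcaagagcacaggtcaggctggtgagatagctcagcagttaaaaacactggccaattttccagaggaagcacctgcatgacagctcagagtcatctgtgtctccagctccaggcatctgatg
Slc2a1: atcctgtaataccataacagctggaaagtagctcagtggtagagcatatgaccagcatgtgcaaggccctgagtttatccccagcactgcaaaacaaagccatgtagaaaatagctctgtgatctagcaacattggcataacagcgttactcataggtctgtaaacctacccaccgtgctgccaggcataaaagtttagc

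These windows lie at chr1:37369823-37370022 (Inpp4a) and chr4:118986956-118987155 (Slc2a1). Inpp4a encodes an inositol polyphosphate phosphatase, and Slc2a1 encodes the glucose transporter GLUT1.

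The median difference over the 2371 regions was 0.91 on the log2 scale, a 1.87-fold higher mean in trained mice at 0 h than in sedentary mice, with quartiles at 0.72 and 1.20 and a range of 0.42 to 3.15. In 933 regions (39.4%) the difference was at least 1. The median level was 8.32 at trained 0 h, about 320 normalised reads per region, and 7.38 in sedentary mice, about 166 reads. The 2077 regions listed as gains in both trained and untrained mice at 0 h had a median difference of 1.19 in trained mice, and 65.0% of them reached a difference of 1. Their sedentary median was 7.41. Both lists were used to choose the regions, so these differences are a description only. Levels are per region and not per length, and a wider region collects more reads. The 1162 gains listed in untrained mice alone had a median difference of 0.88 in their own comparison and a sedentary median of 8.22.

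**Figure D1:**
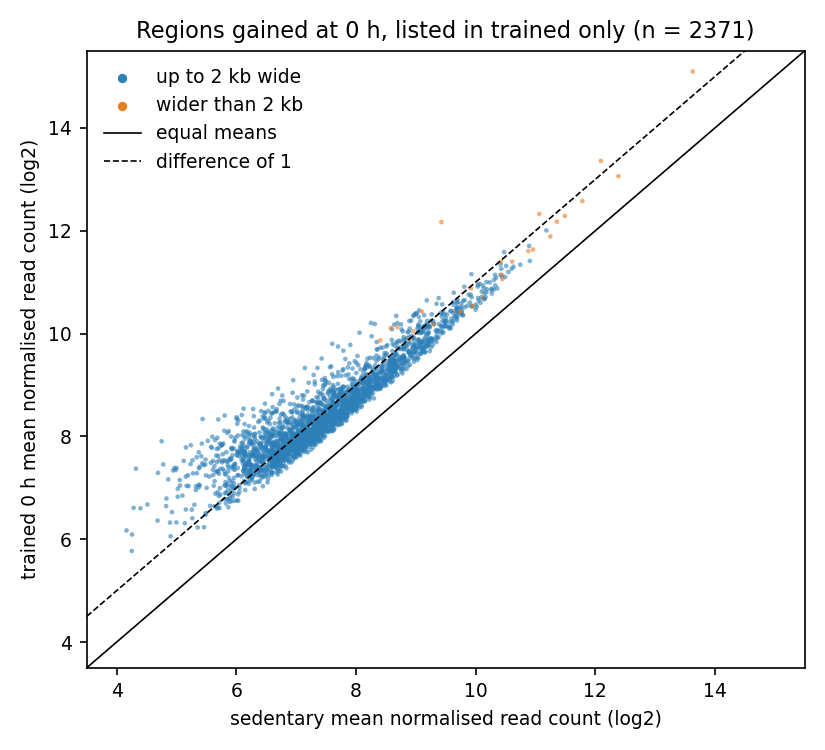
Mean normalised read count (log2) in trained mice at 0 h (vertical) against sedentary mice (horizontal) for the 2371 regions, 1 point per region, with regions wider than 2 kb in orange. All points lie above the solid line of equal means by the rule that chose them, and 933 lie on or above the dashed line of a difference of 1.

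The smallest difference among the regions was at an intron of Wdfy3, with means of 9.66 at trained 0 h and 9.23 in sedentary mice (0.42), followed by an intron of Dock4 with 8.74 and 8.30 (0.44). On the other side of zero, the listed region with the smallest loss lay upstream of Potefam3b, with 9.37 at trained 0 h and 9.73 in sedentary mice (-0.36), followed by 1 near Morf4l1 with 8.97 and 9.35 (-0.38). No region listed at trained 0 h had a difference between -0.36 and 0.42.

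The largest difference was 7610 bp upstream of the nearest Fam135a start site, where the mean was 7.91 at trained 0 h and 4.75 in sedentary mice (difference 3.15). A region 318249 bp upstream of Tenm4, which encodes a teneurin membrane protein, had 7.37 at trained 0 h and 4.32 in sedentary mice (3.05). An intron of Abhd2, a hydrolase gene, had 8.34 at trained 0 h and 5.44 in sedentary mice (2.90). All of these sedentary means were below the sedentary median of 7.38.

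The region near Ppargc1a differed from these in level and width. Ppargc1a encodes the coactivator PGC-1α, which drives mitochondrial gene expression in muscle. The region at chr5:51595752-51603560 is 7809 bp wide and begins 8032 bp past the end of the gene, on its downstream side. Its mean was 12.17 at trained 0 h and 9.43 in sedentary mice (2.74). It was not listed at 6 or 72 h in trained mice or at 6 h in untrained mice. Gains near this gene were not limited to trained mice: 22 gains in both trained and untrained mice at 0 h had Ppargc1a as nearest gene. So did 6 losses in both.

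The next regions lay in or near genes of several kinds. Arhgap24 had an intronic region with 7.46 at trained 0 h and 4.78 in sedentary mice (2.68). Mtpn, which encodes myotrophin, had a region 83526 bp from its nearest start site with 8.33 at trained 0 h and 5.70 in sedentary mice (2.63). Intronic regions of Ptprq, a phosphatase gene, and Inpp4a had differences of 2.63 and 2.60. An intron of Pja2, whose ubiquitin ligase targets regulatory subunits of protein kinase A, had 7.29 at trained 0 h and 4.69 in sedentary mice (2.60). The Slc2a1 intron shown above had 7.83 at trained 0 h and 5.24 in sedentary mice (2.59). The remaining pair of the 12 lay near Serpina12, which encodes vaspin, with a difference of 2.44, and in an intron of Erc2, a presynaptic active zone gene, with 2.42.

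**Figure D2:**
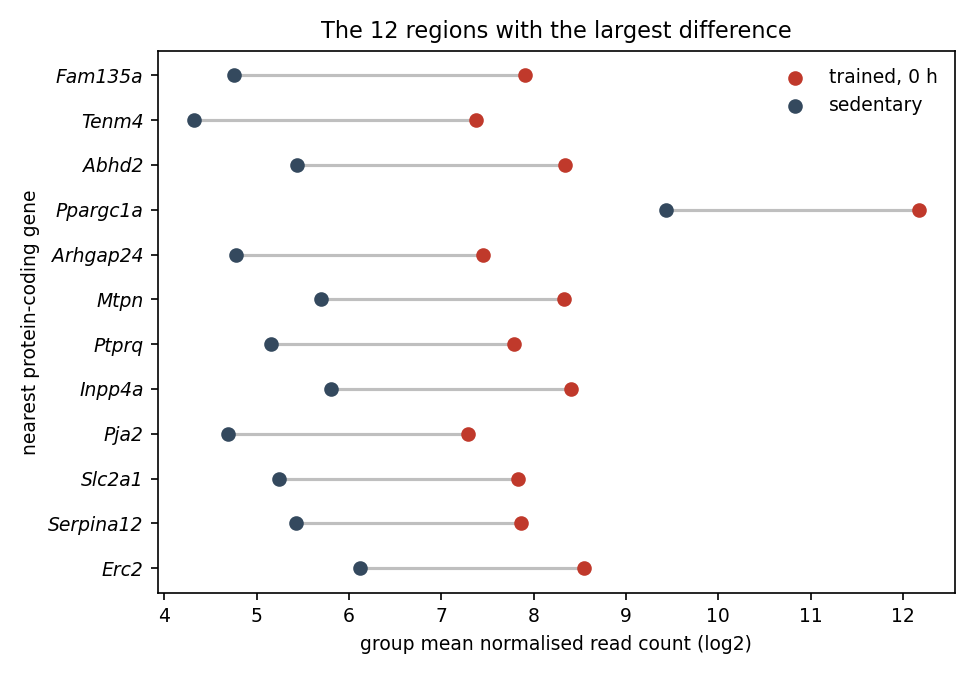
Group mean normalised read count (log2, horizontal) at trained 0 h (red) and in sedentary mice (dark) for the 12 regions with the largest differences, 1 region per gene, ordered by difference from the top. The Ppargc1a region sits to the right of the others, at 12.17 and 9.43.

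The regions were mostly far from promoters. Of the 2371, 1183 (49.9%) lay in introns, 935 (39.4%) between genes, 90 (3.80%) over other exons, 84 (3.54%) over a 3′ untranslated region and 79 (3.33%) within 1 kb of a protein-coding start site. The median distance to the nearest start site was 26126 bp, and 803 regions (33.9%) were more than 50 kb away. Gains listed in both trained and untrained mice were alike in this description, with 4.81% at promoters and a median distance of 26764 bp. Of the gains listed in untrained mice alone, 9.12% were at promoters, and of the 14442 losses listed in trained mice alone, 34.7%. Median width was 456 bp for the 2371 regions, 546 bp for gains in both and 642 bp for gains in untrained mice alone. The share at promoters depended on the definition: with start sites of all annotated genes, non-coding ones included, it was 15.3%.

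The few promoter regions with the largest differences belonged to genes of different functions. At Lrrc2, a leucine-rich repeat gene, the mean was 8.76 at trained 0 h and 7.02 in sedentary mice (1.74). Kcne1, a potassium channel subunit gene, had 7.71 at trained 0 h and 6.02 in sedentary mice (1.69). Psmd11, a proteasome subunit gene, had 7.22 at trained 0 h and 5.55 in sedentary mice (1.67). The differences were 1.59 at Fnip2, a folliculin partner that acts in AMPK and mTOR signalling, 1.56 at the phospholipase gene Pla2g12a and 1.54 at Arpp19, a phosphatase inhibitor. Start sites of all protein-coding transcripts count, so such a region can lie inside its gene. All of these regions except that of Lrrc2 lay wholly inside the annotated gene.

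Only 27 of the regions (1.14%) were wider than 2 kb, against 64 (3.08%) of the gains in both and 100 (8.61%) of the gains in untrained mice alone. The widest, chr4:134041153-134059981, spans 18829 bp and contains all 14556 bp of Trim63, which encodes the ubiquitin ligase MuRF1 of muscle atrophy. Its mean was 15.10 at trained 0 h and 13.63 in sedentary mice (1.47). After the wide regions of Tacc2, Ppargc1a and Nnmt came a region of 4377 bp at the end of Lpin1, a phosphatidate phosphatase gene, with 11.40 at trained 0 h and 10.61 in sedentary mice (0.79), and 1 of 4127 bp in Myh9, a nonmuscle myosin gene, with 11.89 and 11.25 (0.64). None of the 27 was listed as a gain in trained mice at 6 h, against 23.7% of all 2371 regions. An AP-1 match was in the central window of 2, against 42.8% of all 2371. That window covers a small part of so wide a region. Of the 27, 9 had Tacc2 and 6 had Nnmt as nearest gene, so these counts rest largely on few loci.

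The 2371 regions were nearest to the start sites of 1696 of 21575 protein-coding genes (7.86%), and 1278 of these genes had 1 region. Another 281 genes had 2, and 137 had 3 or more. Gains shared with untrained mice lay near 518 (30.5%) of the 1696 genes as well, against 1398 (6.48%) of all protein-coding genes. Regions lost in trained mice at 0 h lay near 1326 (78.2%) of the 1696, against 10852 (50.3%) of all protein-coding genes. By the rule, all 1696 have a region listed at trained 0 h, as do 11456 of all protein-coding genes. Of those 11456, 10852 had a loss, a higher share than among the 1696. A shared gain lay near 1398 of the 11456, a lower share than among the 1696. The differences between these shares were not tested.

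The most regions, 15, lay in Tacc2, a gene for a coiled-coil protein of the centrosome. They cover 49524 bp between chr7 positions 130203980 and 130350424, and 9 are wider than 2 kb. The widest, 14542 bp, had 13.06 at trained 0 h and 12.39 in sedentary mice (0.67), and over all 15 the differences ran between 0.57 and 1.31. Of the 15, 1 was also listed as a gain in untrained mice at 6 h, against 53.9% of all 2371 regions. An AP-1 match was in 1, against 42.8% of all 2371. The annotation also places these positions inside a long model of Fgfr2 on the other strand, and ATAC-seq reads carry no strand of transcription. With start sites of all genes 8 regions were named for Tacc2. With the deposited names 0 were, but the deposited gene positions are on another genome build than the regions. In addition, 4 gains in both trained and untrained mice had Tacc2 as nearest gene.

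A second group of 12 regions had Nnmt, the gene of a nicotinamide methyltransferase, as nearest start site, but 11 of them lie inside Zbtb16, which encodes the transcription factor PLZF, and 1 just past its end. With start sites of all genes, 0 were named for Nnmt. They cover 27919 bp and had differences of 0.80 to 1.61, with a median of 1.28. The widest, 6774 bp, had 12.29 at trained 0 h and 11.49 in sedentary mice (0.80). The largest difference was at an intron of Zbtb16 with 9.21 at trained 0 h and 7.60 in sedentary mice (1.61). Of the 12, 2 were listed as gains in untrained mice at 6 h and 0 in trained mice at 6 h. The shares over all 2371 regions were 53.9% and 23.7%.

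Myc had 8 regions as nearest gene, all at least 164162 bp downstream of its start site. Also near Myc at 0 h were 2 gains in both trained and untrained mice. Losses near it were 9 in trained mice alone and 11 in both. With start sites of all genes 0 regions were named for Myc. The deposited names, whose gene positions are on another build, also gave 0. Of the 8, 6 held an AP-1 match, against 42.8% of all 2371 regions. At 6 h, 5 were gains in untrained mice and 5 in trained mice, where 23.7% of all 2371 were gains. The largest difference there was 2.26, with 7.59 at trained 0 h, 6.90 at trained 6 h, 8.04 at untrained 6 h and 5.34 in sedentary mice. Plcb4, a phospholipase C gene, had 8 regions as well, of which 7 were gains in untrained mice at 6 h. Trib1, a pseudokinase gene, had 7, of which 6 were gains in untrained mice at 6 h. Fhod3, a formin of sarcomere assembly, and Syne1, which encodes nesprin-1 and anchors nuclei to the cytoskeleton, had 6 regions each, with differences of 0.61 to 1.39 at Fhod3 and 0.67 to 1.67 at Syne1. Over all 2371 regions, 53.9% were gains in untrained mice at 6 h. These counts depend on how regions are named: with start sites of all genes Plcb4 had 3 regions, Trib1 0 and Fhod3 3, and with the deposited names Plcb4 had 3.

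On 16 lists of muscle genes and pathways, 118 of 498 genes had at least 1 of the regions, 238 regions in all. Genes on a list are counted whether or not any region near them was listed. For scale, 7.86% of all protein-coding genes had at least 1 of the 2371. Among the genes with any region listed at trained 0 h, the share was 14.8%. The 2371 were 6.96% of all regions listed at trained 0 h. No list was tested.

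Of the glucose metabolism and insulin signalling list, 14 of 40 genes had 42 regions, 18.6% of the 226 regions listed near its genes, with a median difference of 0.95. Of the 42, 7 were regions of Trib1, and 0 were named for Trib1 with start sites of all genes. The list holds Slc2a1 and Trib1. It also holds Pik3r1, which encodes the regulatory subunit of phosphoinositide 3-kinase and had a region 439166 bp upstream with 7.85 at trained 0 h, 7.48 at trained 72 h and 6.25 in sedentary mice (1.60 at trained 0 h). Of the 34 immediate early genes, which are transcribed within minutes of a stimulus, 8 had 30 regions, 21.0% of the 143 listed. Of these 30, 8 were the distant regions of Myc. With start sites of all genes, or with the deposited names from another build, 0 were named for Myc. Atf3, a stress-induced transcription factor gene, had a region 12340 bp upstream with 8.45 at trained 0 h, 9.03 at untrained 6 h and 6.60 in sedentary mice (1.86 at trained 0 h). The difference was 1.67 at a region 63123 bp from the start site of Cebpd, a C/EBP family gene, and 1.33 at 1 that lies 160632 bp upstream of Jun, which encodes an AP-1 subunit. Losses at 0 h were also listed near Jun (3 in trained mice alone, 5 in both) and Pik3r1 (2 and 12). None of the 2371 regions was near the 27 genes of the heat shock response and the unfolded protein response. Near them, 37 regions were listed at trained 0 h. The 2371 were 6.96% of all regions listed then, a share at which few of 37 would be members. Gains near these genes were 5 in both trained and untrained mice and 12 in untrained mice alone.

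Of 20 oxidative metabolism regulators, 6 had 12 regions (8% of the 150 listed). Besides the Ppargc1a region, an intron of Esrrg, an estrogen-related receptor gene, had 8.11 at trained 0 h, 7.17 at untrained 6 h and 5.80 in sedentary mice (2.31 at trained 0 h). At an intron of Pparg, a lipid-sensing nuclear receptor gene, the difference was 1.23. The promoter of Esrrb, another estrogen-related receptor gene, had 10.14 at trained 0 h and 9.04 in sedentary mice (1.09). Of 35 oxidative phosphorylation subunits, 5 had 7 regions (14.3% of the 49 listed), led by 1 near Uqcrfs1, the Rieske protein gene of complex III, with a difference of 1.19. Of 34 genes of fatty acid and lipid metabolism, 8 had 12 regions (10.2% of the 118 listed). An intron of Acsl6 had a difference of 1.86 and a region upstream of Acsl1 one of 1.73, and both genes encode acyl-CoA synthetases.

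Among 24 genes of hypoxia and angiogenesis, 6 had 13 regions (15.9% of the 82 listed). Vegfa, the main endothelial growth factor gene, had a region 26657 bp from its start site with 9.07 at trained 0 h and 7.31 in sedentary mice (1.75). Losses near Vegfa at 0 h were 3 in trained mice alone and 5 in both. At Egln3, a prolyl hydroxylase gene of the hypoxia response, 4 means were listed: 9.86 at trained 0 h, 9.78 at trained 6 h, 9.69 at untrained 6 h and 8.72 in sedentary mice. Hif1a, 1 of 10 genes that the study displayed, had its largest difference, 0.82, at a region 121085 bp upstream. The study picked those 10 genes on these samples, so the 4 that had 13 of the regions are no independent evidence.

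Of 31 genes of growth and atrophy, 11 had 17 regions (10% of the 170 listed). Foxo1, a transcription factor gene of atrophy programmes, had a region 203910 bp from its start site with 7.16 at trained 0 h, 7.22 at trained 6 h and 4.86 in sedentary mice (2.30 at trained 0 h). Rptor, the mTORC1 scaffold gene, had an intronic region with 7.37 at trained 0 h, 7.26 at trained 6 h, 8.46 at untrained 6 h and 5.77 in sedentary mice (1.61 at trained 0 h). Of 37 myogenic and muscle transcription factors, 14 had 24 regions (6.06% of the 396 listed). Bach1 and Bach2, repressors that bind AP-1-like sequences, had intronic regions with 3 and 2 AP-1 matches. The Bach1 region had 7.53 at trained 0 h, 7.98 at untrained 6 h and 5.12 in sedentary mice, and the Bach2 region had a difference of 2.08 at trained 0 h. A region 17951 bp upstream of Mef2a, a muscle transcription factor gene, had 7.84 at trained 0 h and 5.76 in sedentary mice (2.08).

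Regions were also near genes of contraction. Of 42 sarcomere genes, 10 had 14 regions (5.30% of the 264 listed), of which 13 were gains in untrained mice at 6 h, against 53.9% of all 2371 regions. An intron of Xirp2, which encodes an actin-binding protein, had 7.49 at trained 0 h, 7.14 at trained 6 h, 8.37 at untrained 6 h and 5.57 in sedentary mice (1.91 at trained 0 h). Of 36 genes of calcium handling and excitability, 10 had 21 regions (7.84% of the 268 listed). The difference was 1.68 near Atp1b1, a sodium pump subunit gene, and 1.47 near Sln, which encodes the calcium pump inhibitor sarcolipin. Of 20 neuromuscular junction genes, 3 had 7 regions (15.6% of the 45 listed), and all 7 were gains in untrained mice at 6 h, against 53.9% of all 2371. The sarcomere and neuromuscular junction lists had the highest such shares of all lists, over few regions. Lists below 53.9% included growth and atrophy (4 of 17 regions), oxidative metabolism regulators (3 of 12) and fatty acid and lipid metabolism (4 of 12). An intron of Musk, the receptor kinase that clusters acetylcholine receptors, had a difference of 1.91.

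Of 24 genes of cAMP, CREB and salt-inducible kinases, 6 had 9 regions (5% of the 180 listed), with the largest difference, 1.46, upstream of the adenylyl cyclase gene Adcy9. Of 33 genes of TGF-beta, myostatin and BMP signalling, 5 had 9 regions (5.62% of the 160 listed), and the largest difference was 1.62 near Tgfb2. Of 41 chromatin regulators, 8 had 11 regions (4.98% of the 221 listed), with differences of 1.60 at the acetyltransferase gene Crebbp and 1.48 at the muscle methyltransferase gene Smyd1. Of 23 circadian clock genes, 4 had 10 regions (8.47% of the 118 listed). A region over a start site inside Bmal1 had 6.89 at trained 0 h, 7.04 at trained 6 h, 7.41 at untrained 6 h and 5.97 in sedentary mice (0.93 at trained 0 h). Of 55 markers of endothelial, fibroblast, immune, satellite, glial and tendon cells, 5 had 1 region each, with differences of 0.70 at Emcn, 0.73 at Col1a2, 0.68 at Col3a1, 0.88 at Itga7 and 1.60 at Sox10. No immune marker had any, but only 12 regions near the 11 immune markers were listed at trained 0 h. For scale, 7.86% of all protein-coding genes had at least 1 of the 2371. The part of other cell types in the differences was not tested.

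The AP-1 sequence was found in the central 200 bp of 1014 of the 2371 regions (42.8%). Over all 41411 listed regions the share was 10.2%, and over the regions listed at trained 0 h it was 8.96%. Gains in both trained and untrained mice held it in 41.1%, gains in untrained mice alone in 13.1%, losses in trained mice alone in 3.58% and losses in both in 4.40%. In windows of the same length 1 kb to either side of the centres, the 2371 regions held it in 6.20% on average. The matches were thus concentrated at the centres: 15.2% of the regions had a match in the 50 bp just right of the centre and 14.9% in the 50 bp just left of it, against 1.69% in the outermost bin on the left.

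**Figure D3:**
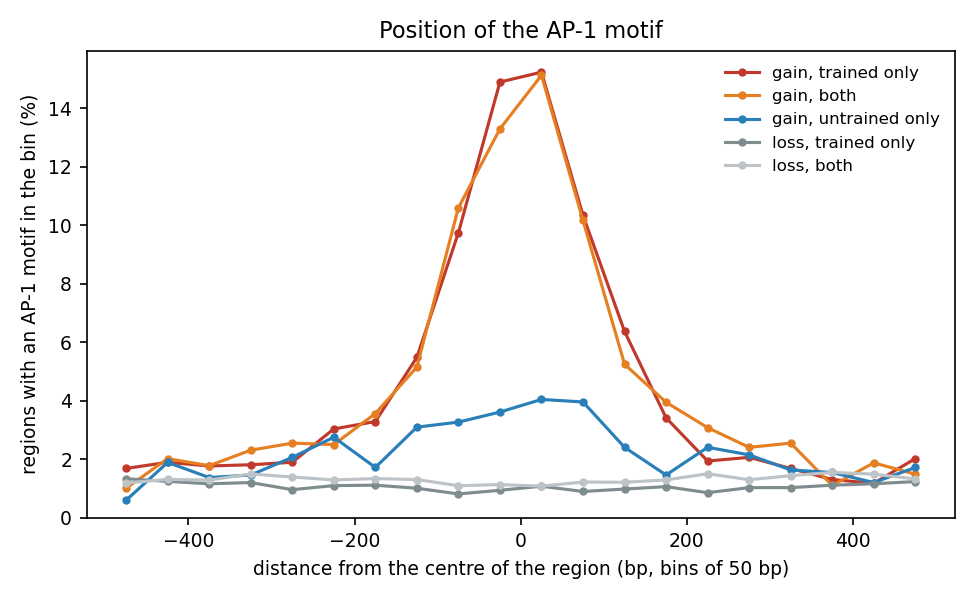
Share of regions with an AP-1 sequence (vertical, %) in bins of 50 bp by distance from the region's centre (horizontal, bp), 1 line for each kind of region listed at 0 h. The lines of gains in trained mice alone and of gains in both reach about 15% beside the centre, and the lines of losses stay flat.

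Of the 1014 regions with AP-1, 888 had a match with C or G in the middle, the form preferred by FOS and JUN dimers, and 126 had only matches with A or T there. A single match was found in 840 and more than 1 in 174. With the regions divided at the quartiles of the difference, the share was 32.2% in those with the smallest differences, then 39.6% and 42.1%, and 57.2% in those with the largest. It was 43.4% in introns, 43.3% between genes and 39.2% at promoters.

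The CRE gave another order. It was found in 4 of the 2371 regions (0.169%), in 75 (3.61%) of the gains in both and in 58 (4.99%) of the gains in untrained mice alone. The shorter core TGACG, which the CRE contains, was found in 9.83% of the 2371 regions, 28.9% of the gains in both and 39.4% of the gains in untrained mice alone, against 11.7% of all listed regions. The gains listed in trained mice alone thus had an AP-1 share close to that of the gains in both, and a share of the CRE core below that of all listed regions. The difference between these kinds of region was not tested.

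**Figure D4:**
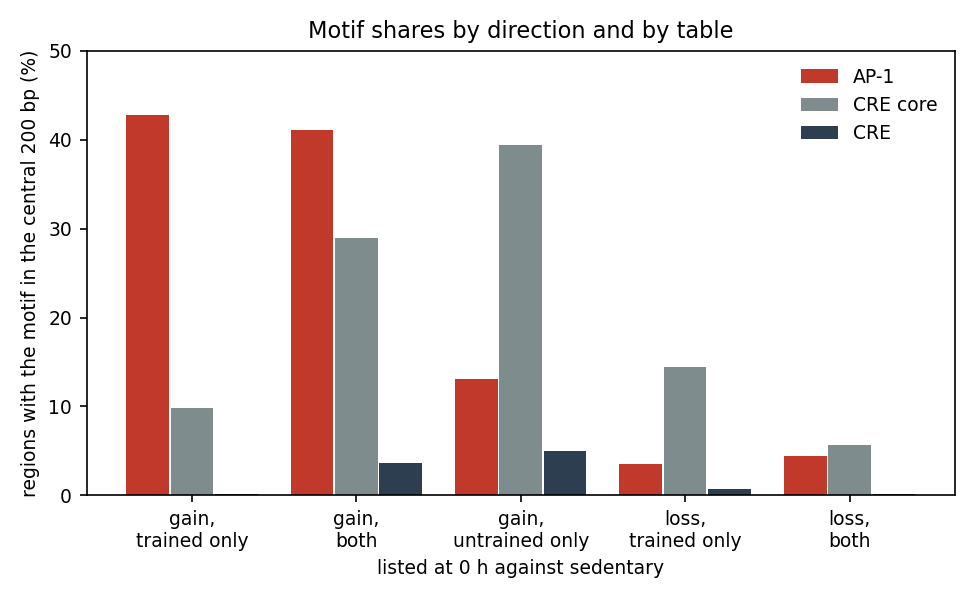
Share of regions (vertical, %) with the AP-1 sequence (red), the CRE core (grey) and the whole CRE (dark) in the central 200 bp, for gains and losses listed at 0 h in trained mice only, in both or in untrained mice only. AP-1 is found in 42.8% of the gains in trained mice only and in 13.1% of those in untrained mice only, and the CRE core in 9.83% and 39.4%.

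The other sequences searched were closer in percentage points than AP-1 to their shares over all listed regions. The E-box CAGCTG of myogenic factors was in 20.8% of the 2371 regions and 19.8% of all listed, the TEAD sequence GGAATG in 12.7% and 11.7%, the heat shock core TTCNNGAA in 5.78% and 5.38%, and the FOXO sequence TGTTTAC in 3.42% and 2.82%. The MEF2 core CTATTTTTA was in 1.86% and 1.45%, the MEF3 sequence TCAGGTTTC in 0.590% and 0.693%, the estrogen-related receptor element TCAAGGTCA in 0.422% and 0.592%, and the NR4A element AAAGGTCA in 2.78% and 1.84%. The glucocorticoid receptor pattern ACANNNTGT was in 10.9% of the 2371 regions and 6.55% of all listed. The GC-rich sequence CCACCC of KLF and SP factors was in 14% and 17.9%, and the hypoxia element TACGTG in 1.39% and 2.27%. The CTCF core AGGGGGCGC and the NRF1 sequence GCGCATGCG were in 0 of the 2371 regions and in 0.954% and 0.273% of all listed. Only if the regions were independent draws from more such regions would 0 allow a share of up to 0.127% each. The median GC content of the windows was 48.0% in the 2371 regions and 51.5% in all listed.

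At 6 h, 1277 of the 2371 regions (53.9%) were listed as gains in untrained mice, where gains made up 6.47% of all regions tested. In trained mice at 6 h, 562 (23.7%) were gains, where gains made up 1.97% of regions tested. The same sedentary samples enter every comparison, so a low sedentary mean raises all differences of a region at once, and these counts are a description. Gains in both trained and untrained mice at 0 h were listed as gains in 51.0% at untrained 6 h and 18.3% at trained 6 h, and gains in untrained mice alone in 6.97% and 0.258%. Of the 2371 regions, 545 were gains in both 6 h lists, 732 in untrained mice alone, 17 in trained mice alone and 1077 in neither.

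Where both were listed, untrained means at 6 h were mostly above trained means at 0 h. Over the 1277 regions the median was 8.53 at untrained 6 h and 8.11 at trained 0 h, and the untrained 6 h mean was the higher in 1037 (81.2%), with a median difference of 0.36. Over the 1059 gains in both at 0 h that were gains at untrained 6 h, that median difference was 0.05, and the untrained 6 h mean was the higher in 54.8%. Over the 562 regions that were gains at trained 6 h, the medians were 7.98 at trained 6 h and 7.93 at trained 0 h, and the trained 6 h mean was the higher in 280 and the lower in 282. Over the 545 regions on both 6 h lists, the median was 7.97 at trained 6 h and 8.59 at untrained 6 h, and the trained mean was the lower in 517 (94.9%). A list holds only regions past its threshold, so means that were too low to be listed are missing from these medians.

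**Figure D5:**
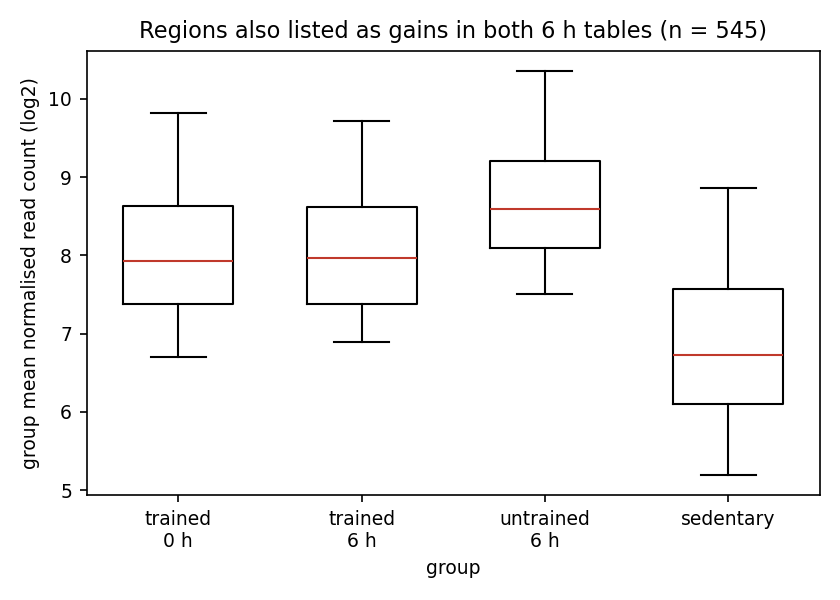
Group mean normalised read count (log2, vertical) of the 545 regions that were also gains in both 6 h lists, by group. Boxes span the quartiles over regions with the median in red, and whiskers the 5th to 95th percentiles. The medians are 7.93 at trained 0 h, 7.97 at trained 6 h, 8.59 at untrained 6 h and 6.73 in sedentary mice.

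The largest gains at 6 h were in regions that were weak at rest. A region 41922 bp from the start site of Olfml3, an extracellular matrix gene, had 6.17 at trained 0 h, 7.07 at trained 6 h, 8.75 at untrained 6 h and 4.17 in sedentary mice. Near Hs6st1, a heparan sulfate sulfotransferase gene, the means were 6.09 at trained 0 h, 6.00 at trained 6 h, 8.34 at untrained 6 h and 4.26 in sedentary mice. Near Ell2, an elongation factor gene, they were 8.24, 8.04, 9.82 and 6.02 in the same order of groups. In these regions, as in the Abhd2 intron with 8.34, 8.02, 9.16 and 5.44, the untrained 6 h mean was the highest of the 4. Agap1 and Mboat2 had the other leading gains at trained 6 h, with differences from sedentary mice of 2.84 and 2.42. In the Fam135a region the trained 0 h mean was the highest, with 7.91 at trained 0 h, 6.49 at trained 6 h, 6.91 at untrained 6 h and 4.75 in sedentary mice.

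The AP-1 sequence was in 321 (58.9%) of the 545 regions that were gains in both 6 h lists, in 422 (57.7%) of the 732 in untrained mice alone, in 4 of the 17 in trained mice alone and in 267 (24.8%) of the 1077 in neither. The sedentary median was 6.73 in the 545, 7.29 in the 732, 7.16 in the 17 and 7.67 in the 1077. The median difference at trained 0 h was 1.13, 0.92, 0.87 and 0.82 in the same order. The share of gains at untrained 6 h was 73.9% in the regions above the upper quartile of the difference at trained 0 h and 38.8% in those below the lower quartile. The 545 and the 732 thus had like AP-1 shares at different levels and differences. The parts of level, size of the difference and AP-1 were not tested.

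Few of the regions were listed as losses later. At 6 h, 27 (1.14%) were losses in untrained mice and 48 (2.02%) in trained mice, where losses made up 6.60% and 16.4% of regions tested. A region near Fzd9, a Wnt receptor gene, had 7.73 at trained 0 h, 4.96 at trained 6 h and 6.34 in sedentary mice. An intron of Igf1r, the receptor gene of insulin-like growth factor, had 8.92 at trained 0 h, 7.18 at trained 6 h, 7.50 at untrained 6 h and 8.31 in sedentary mice. An intron of Pde4d, a cAMP phosphodiesterase gene, had 7.79 at trained 0 h, 5.76 at trained 6 h, 5.49 at untrained 6 h and 6.85 in sedentary mice. In these regions the mean lay above the sedentary mean at 0 h and below it at 6 h.

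At 72 h in trained mice, 6 of the regions were gains and 15 were losses, where gains made up 0.0422% and losses 4.06% of regions tested. The region 211350 bp upstream of Htr2a, a serotonin receptor gene, had 6.60 at trained 0 h, 7.26 at trained 6 h, 7.48 at trained 72 h, 7.19 at untrained 6 h and 5.72 in sedentary mice. In an intron of Pigk, a gene of glycolipid anchor attachment, the means were 7.93 at trained 0 h, 7.79 at trained 6 h, 7.04 at trained 72 h, 7.39 at untrained 6 h and 5.97 in sedentary mice. Near Phf24 they were 7.46, 7.86, 7.08, 8.19 and 6.15 in the same order. The largest loss had Ice1 as nearest gene and lay in an intron of Adamts16, with 8.25 at trained 0 h, 6.49 at trained 72 h and 7.50 in sedentary mice. Other losses lay in an intron of Slc4a4, a bicarbonate transporter gene, with 9.19 at trained 0 h, 7.53 at trained 72 h and 8.49 in sedentary mice, and in 1 of Gja5, a gap junction gene, with 8.01, 6.01 and 6.91.

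The regions also lay near each other and near gains shared with untrained mice. Of the 2371, 352 (14.8%) lay within 10 kb of another of them, and 280 (11.8%) within 10 kb of a gain in both. Gains in both lay closer together: 21.9% were within 10 kb of another gain in both, and 14.1% within 10 kb of 1 of the 2371. Of the 14442 losses in trained mice alone, 2.93% lay within 10 kb of 1 of the 2371. Of the 2371, 2228 lay more than 1 kb from any region listed in untrained mice at 0 h in either direction. On chromosomes, between 28 regions (X) and 196 (chromosome 1) were found, and 0 on Y.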

How the data were processed

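Per the labels' processing notes, the tools used were Trimmomatic 0.39, Bowtie2 2.4.4, SAMtools 1.15, Genrich 0.6.1, DiffBind 3.4.11 and ChIPseeker 1.30.3, on the genome build GRCm39. The deposited tables list regions under an FDR of 0.05, with the log2 mean normalised read count of each group as the authors computed it. They also hold the authors' fold change, p-value and FDR for each region. The authors' p-value and FDR served here only to recover the number of regions tested, which was 63953 in each of the 5 comparisons with listed regions, and for a stricter list. None of these values is printed, nor are the fold changes.

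Differences are exercised minus sedentary group means, computed here. Regions count as shared where coordinates are identical. Genes are the protein-coding genes of GENCODE M39 with the nearest start site, because the gene positions in the deposited tables are on another build. A region is at a promoter within 1 kb of a start site of any protein-coding transcript, also one inside a gene. The 16 sequences were searched in the central 200 bp, and tables were made with Python 3.11.15 and pandas 2.3.3. Functions were tested on simulated data with known answers. The region set, gene lists, sequences and rules were chosen with earlier results of these data known.

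Leaving out predicted genes and taking 1 region for each gene, the text names the 12 regions with the largest difference, the 8 genes with most regions, up to 4 genes of each list, 6 promoters, the 6 widest regions, up to 4 regions per direction in each later list, and the regions nearest the threshold. Of these, the text leaves out some list genes, and some results are not reported here. Alternatives were another overlap rule, a stricter FDR of 0.01, a difference of at least 1, a filter on low signal, other gene names and promoter definitions, and windows of 400 bp or the whole region. Shares at 1 kb from the centres, by quartile of the difference, by middle base and by list at 6 h were added after the data were examined. Because the values are group means, depth and precision per sample are unknown and no new test was made.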

Additional observations from a re-analysis of the deposited data

How the results depend on the processing

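No paired analysis was possible because the tables give means of groups only, and for the same reason no replicate could be left out. An overlap of 1 bp in place of identical coordinates gave the same regions. The filter on low signal left 1196 regions with a median difference of 0.81.

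With an FDR of 0.01, 1383 regions near 1078 genes remained, with a median difference of 1.13. The share of gains was 61.3% at untrained 6 h and 31.7% at trained 6 h, losses were 1.45% at trained 6 h and 0.145% at trained 72 h, and AP-1 was in 48.2%. With a difference of at least 1, 933 regions near 791 genes remained, 687 of these genes with 1 region. Gains were 68.9% at untrained 6 h and 36.9% at trained 6 h, losses were 0.429% at untrained 6 h, 0.857% at trained 6 h and 0.107% at trained 72 h, and AP-1 was in 51.9%. These lists hold fewer regions by construction.

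The promoter share was 8.69% within 3 kb, 15.3% with start sites of all genes and 7.42% by the deposited annotation, which put 46.0% in introns and 36.4% between genes. Deposited names gave 0 regions to Tacc2 and Myc, and start sites of all genes gave 0 to Nnmt, Myc and Trib1. The deposited names and classes rest on gene positions of another build than the regions. Longer windows hold each sequence more often. In 400 bp and in the whole region AP-1 was in 55.0% and 60.1%, the CRE in 0.506% and 0.548% and its core in 17.0% and 21.1%. In the whole region, AP-1 was in 61.3% of gains in both, 34.6% of gains in untrained mice alone and 15.8% of losses in trained mice alone. Region counts of single genes moved by more than 1.5 times in 16 of 32 settings. The unknown depth per sample limits all group means.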
